A study of Drosophila melanogaster with 36 samples.

Results

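The genes of oxidative phosphorylation were followed here across all feeding regimens, models and times of day of the series. Members were the entries of the gene count table whose name starts with ND- or with ND and a digit, with COX, CoV, ATPsyn, Sdh, UQCR or Cyt-c, or is RFeSP, blw, levy or cype. This rule took 22 of 16727 genes: 3 of complex I (ND23, ND42, ND75), 3 of complex II (SdhA, SdhB, SdhC), 1 of complex III (RFeSP), the 2 cytochrome c genes (Cyt-c-p, Cyt-c-d), 7 of complex IV (CoVa, CoVb, CoVIb, CoVIIc, CoVIII, cype, levy) and 6 of complex V (ATPsyn-b, ATPsyn-beta, ATPsyn-d, ATPsyn-gamma, ATPsyn-Cf6, blw). The table uses older gene names, and 74 further entries fit the rule only under their current RefSeq symbol. Of these, 48 were subunits with clear counts, 25 were entries of low count and 1 was an assembly factor, and they are described beside the 22 members and never counted with them.

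Oxidative phosphorylation is carried out by 5 protein complexes of the inner mitochondrial membrane. Complexes I and II take electrons from NADH and succinate, complex III passes them to the small carrier cytochrome c, complex IV hands them to oxygen, and complex V (ATP synthase) uses the resulting proton gradient to make ATP. Insect flight muscle is among the most mitochondria-rich of tissues and depends on this pathway for sustained wing beats. Drosophila also carries many duplicated genes for single subunits, and several of the copies are known to be expressed mainly in the testis.

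Poly(A) RNA was sequenced from indirect flight muscle (IFM) of Drosophila melanogaster females at 3 weeks of age, each library from a pool of 10 flies. The 6 groups were Sk2-TRF, Sk2-ALF, HFD-TRF, HFD-ALF, WT-TRF and WT-ALF, with 6 libraries each, 1 at each of zeitgeber times ZT3, ZT7, ZT11, ZT15, ZT19 and ZT23 (hours after lights on). Sk2 flies were mutant for Sphingosine kinase 2, a genetic model of obesity held as 1 stock line whose background strain is not given in the sources used here, and ate the normal diet. HFD flies were Canton-S wild type on the normal diet with added coconut oil, and WT flies were Canton-S on the normal diet. TRF (time-restricted feeding) flies had food in the light phase and agar in the dark phase, and ALF (ad libitum feeding) flies had food at all times. By design the model contrasts therefore differ in diet (HFD versus WT) or in genotype and possibly in strain background (Sk2 versus WT).

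Each model, regimen and time has a single library, so the time points served as the replicates, and the p-values measure the spread between pools taken at different times. The study left out the libraries WT-TRF ZT11 and Sk2-ALF ZT23, and the remaining 34 were used here, giving n = 5 in WT-TRF and Sk2-ALF and n = 6 in the other groups. Depth ran from 3329519 to 30682673 counts per library, so that 3 counts stood for 0.0978 to 0.901 counts per 1000000 library counts (CPM). Depth also differed between models. Under TRF it was 3329519 to 9911737 counts in WT, 12017403 to 30682673 in HFD and 17845999 to 26410549 in Sk2 flies. WT-ALF libraries had at most 10132861 counts and the Sk2-ALF libraries used at least 10870706. In these contrasts with WT, depth and model cannot be told apart, and the part of depth was not tested. The Sk2 transcript was at 1.11 to 5.48 CPM in the Sk2 libraries and at 4.94 to 16.4 CPM in the HFD and WT libraries, with no overlap under ALF and 1 Sk2-TRF library inside the range of WT-TRF. All 12 flight muscle markers examined were present, with sums of 22144 to 64170.0 CPM, while the summed ovary and germline markers reached 258 CPM in Sk2-ALF ZT15, 794 CPM in WT-ALF ZT11 and, in the libraries left out, 615 CPM in Sk2-ALF ZT23 and 980.0 CPM in WT-TRF ZT11, against at most 114 CPM in any other library.

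The members were abundant in every library. Together they took 1.06 to 3.85% of all counts (median 2.23%), and with the 48 renamed subunits 2.32 to 8.34%. Of the 22 members, 21 passed the filter on low counts; they cover all 5 complexes and all 21 were expressed in all 34 libraries. Levels are compared between genes per kilobase of exon (CPM per kb, mean of the 34 libraries), since a longer transcript gathers more reads.

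**Figure D1:**
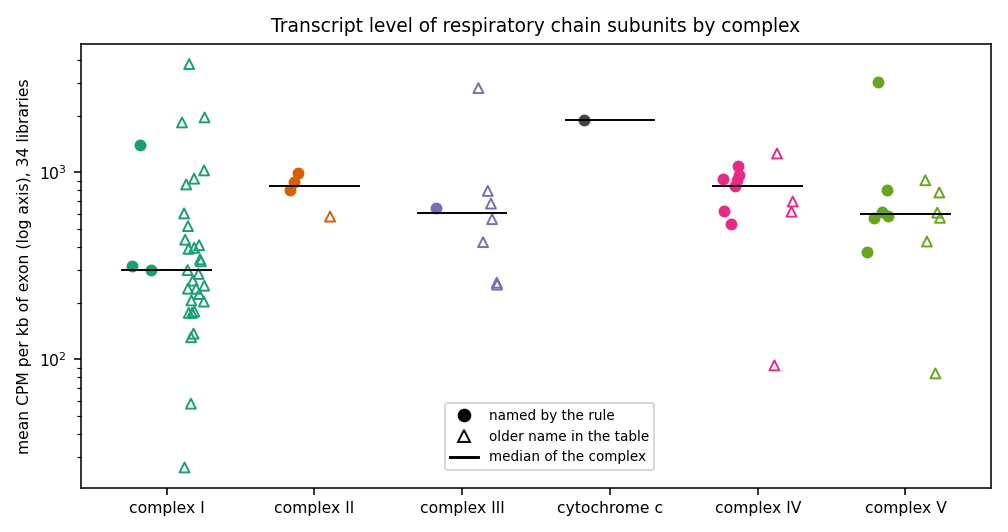
Mean level of each subunit gene in CPM per kb of exon (log axis) by complex, over 34 libraries. Filled circles are the 21 members that passed the filter, triangles are the 48 renamed subunits, and the bar is the median of the complex; the level ran over more than an order of magnitude within complexes I, III, IV and V.

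Complex V held the most abundant member. ATPsyn-beta, the catalytic beta subunit (dm6 chromosome 4, 1031484 to 1034917, plus strand), averaged 3032 CPM per kb. ATPsyn-Cf6, coupling factor 6 of the stalk, was at 803 CPM per kb, and blw, the alpha subunit that alternates with beta in the catalytic head, at 615 CPM per kb. The lowest member of the complex was ATPsyn-gamma, the rotating central shaft, at 375 CPM per kb.

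Cyt-c-p, the somatic cytochrome c (chromosome 2L, 16719932 to 16722644, plus strand), was second among the members at 1903 CPM per kb. Its immediate neighbour on the same strand, Cyt-c-d (chromosome 2L, 16715891 to 16719635), is the cytochrome c known from the male germline. It had any count in 25 of 34 libraries, 3 or fewer counts in 30 of them, at most 10 counts in a library and a mean of 0.13 CPM. Per kilobase the ratio of Cyt-c-p to Cyt-c-d was 12282, a value that rests on very few Cyt-c-d counts. Cyt-c-d did not pass the filter, and no fold change is given for it.

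Among the complex I members, ND23, an iron-sulphur subunit of the peripheral arm (chromosome 3R, 15836048 to 15837117, minus strand), was at 1396 CPM per kb, and ND75, the large subunit with several iron-sulphur clusters, and ND42, an accessory subunit, were at 314 and 301 CPM per kb. The renamed genes sorted into complex I by their symbol widened the range at both ends, with ND-MLRQ (listed as CG32230) at 3789 CPM per kb and ND-AGGG (CG40002) at 26.4 CPM per kb. ND-51 (CG9140) and ND-49 (CG1970), which carry the flavin site and part of the quinone site, were at 1964 and 1846 CPM per kb. Subunits assigned to 1 complex by symbol thus differed widely in mRNA level per length.

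In complex II, the succinate dehydrogenase flavoprotein SdhA was at 882 CPM per kb, the iron-sulphur subunit SdhB at 805 CPM per kb and the membrane anchor SdhC at 992 CPM per kb. SdhD (CG10219), the other anchor, was at 579 CPM per kb. The 7 complex IV members lay between 529 CPM per kb for CoVIII and 1078 CPM per kb for cype, the subunit VIc homologue. RFeSP, the Rieske iron-sulphur protein and the sole complex III member, was at 643 CPM per kb.

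Low-count paralogues stood clearly apart from these genes. The 25 renamed low-count entries averaged at most 2.27 CPM, 24 of them under 1 CPM, and 4 had no count in any of the 34 libraries. Most carry the suffix L, for a copy of another subunit gene. ATPsynbetaL, listed as ms(3)72Dt, was 25031 times lower per kilobase than ATPsyn-beta, and SdhBL (CG7349) 10769 times lower than SdhB; these ratios too rest on few counts. Of the 10 testis markers in the table, 8 never reached 1 CPM in a library, and the sum of the list was 0.899 to 3.37 CPM. The 25 include ND-MNLL (CG18624), which had no count in any library and whose exon bases are all shared on the same strand with CG45089, so its level could not be measured.

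Only 2 of these 25 entries passed the filter, COX5BL (CG11043) and UQCR-11L (CG30354). COX5BL was at 3.50 CPM per kb, against 842 CPM per kb for CoVb. It was higher in HFD-ALF than in WT-ALF flies (log2 fold change 0.81, SE 0.26, adjusted p = 0.0311, edgeR), and UQCR-11L was lower (−1.22, SE 0.32, adjusted p = 0.0109), at a level of 0.589 CPM. UQCR-11L had 2 to 7 counts per library in HFD-ALF and 2 to 10 in WT-ALF flies, so its difference rests on few counts. Complex IV had a paralogue pair in which both genes were well expressed. COX7AL2 (CG34172), the copy by name, was at 615 CPM per kb and COX7A (CG9603) at 92.8 CPM per kb, a ratio of 6.63. This pair was singled out after its values were seen.

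Before the comparisons, the sum of the members shows how far single libraries lay apart. The 22 members together had 29791, 40963, 36791, 33577, 26199.9 and 41311 CPM at ZT3 to ZT23 in Sk2-TRF flies. In Sk2-ALF flies they had 27570, 24677, 22362, 28252 and 26275 CPM at ZT3 to ZT19. Every Sk2-TRF library but the one of ZT19 exceeded every Sk2-ALF library.

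In HFD-TRF flies the sums were 12983, 10001, 17341, 19103, 15208 and 17679 CPM, and in HFD-ALF flies 9191, 18161, 28916, 17149, 22506 and 18966 CPM. In WT-TRF flies they were 25321, 32128, 20247, 23214 and 27893 CPM at ZT3, ZT7, ZT15, ZT19 and ZT23, and in WT-ALF flies 16650.4, 26760.0, 24569.7, 17779.8, 23399.6 and 21992 CPM at ZT3 to ZT23. Every HFD-TRF library lay below the 5 WT-TRF libraries used, whereas the HFD-ALF libraries enclosed the range of WT-ALF, from HFD-ALF ZT3 below it to HFD-ALF ZT11 above it. The 2 libraries left out by the study, scaled apart over all 36 libraries, were at 21499.5 CPM in Sk2-ALF ZT23 and 12259 CPM in WT-TRF ZT11. By share of a library's total counts, WT-TRF ZT11 (1.53%) was below the rest of its group, the lowest of which had 2.02%. Sk2-ALF ZT23 (2.66%) was not, with Sk2-ALF ZT11 at 2.14% and Sk2-ALF ZT7 at 2.51%.

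**Figure D2:**
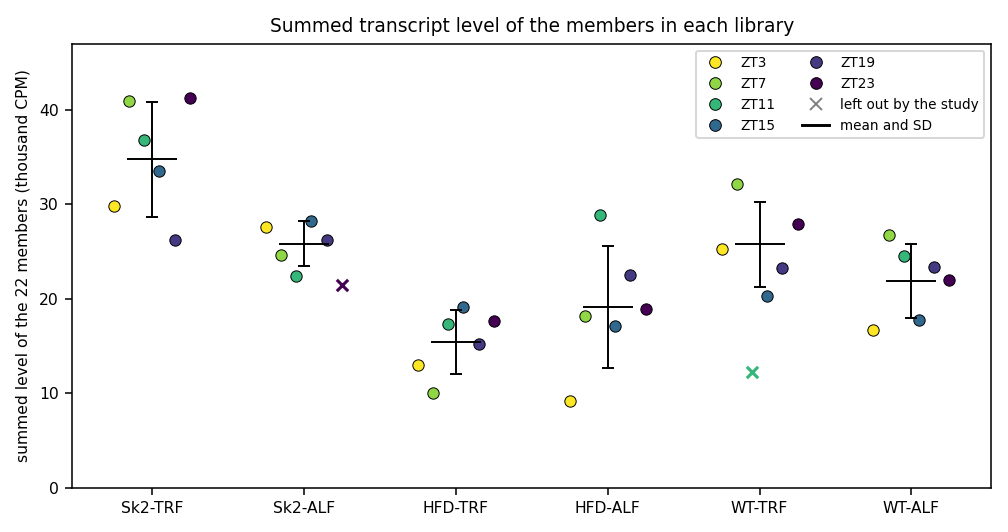
Summed level of the 22 members (units of 1000 CPM, linear axis from 0) in each library, by group; colours are time points, crosses are the libraries left out by the study (scaled apart, over all 36 libraries), and bars are the mean and SD of the others. Sk2-TRF libraries reach 41311 CPM, and no HFD-TRF library exceeds 19103 CPM.

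The members moved together from library to library. HFD-TRF ZT7 held the lowest value of its group for 20 of 21 members, HFD-ALF ZT3 for 20 of 21, WT-TRF ZT15 for 18 of 21 and WT-ALF ZT3 for 15 of 21. WT-TRF ZT7 held the highest value for 20 of 21 and WT-ALF ZT7 for 19 of 21. The 48 renamed subunits followed the same libraries, with 42 of 48 lowest in HFD-TRF ZT7, 44 of 48 lowest in HFD-ALF ZT3 and 40 of 48 highest in each of the WT ZT7 libraries. Members were thus not independent readings of a condition.

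Some of these libraries also stood apart in markers of other tissues. HFD-TRF ZT7 and HFD-ALF ZT3 had fat body marker sums of 6356 and 9151 CPM, with HFD-ALF ZT23 (8010.2 CPM) the 3 lowest of the series. HFD-ALF ZT23 held the lowest value of its group for only 1 of 21 members. WT-ALF ZT3 had the lowest fat body sum of its group, 16767 CPM, whereas WT-TRF ZT15 was at the median of its group, 29273 CPM. HFD-ALF ZT3 had the highest sum of neuron markers, 617 CPM. Of the 9 fat body markers 8 were in the table, and the yolk protein genes Yp1, Yp2 and Yp3 made up most of the sum. In bulk tissue, fewer cells of a type and less RNA per cell cannot be told apart. Whether the makeup of the sample contributed to the levels of the members was not tested.

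The main question of the study was what TRF does to IFM in each model. No member passed an adjusted p under 0.05 for TRF versus ALF in any of the 3 models with edgeR, where of all genes 0.03% rose and 0.05% fell in Sk2 flies, 0.06% rose and 0.0% fell in HFD flies, and 0.0% rose and 0.0% fell in WT flies. At the threshold used by the study, a level at least 25% higher in one group than in the other with an unadjusted p of at most 0.05, a few members passed, in opposite directions in Sk2 and HFD flies (4 in Sk2, 2 in HFD and 1 in WT flies with edgeR, and 6, 4 and 1 with DESeq2). With DESeq2, 739, 1206 and 614 of 9996 genes passed in either direction in Sk2, HFD and WT flies. The TRF groups overlapped the ALF groups for all 21 members in all 3 models. Of all genes, 0.52% were higher and 0.27% lower under TRF without overlap in Sk2 flies, 0.2% and 0.06% in HFD flies, and 0.16% and 0.83% in WT flies.

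In Sk2 flies, all 21 members were higher under TRF by some amount (median log2 fold change 0.39, range 0.20 to 0.50), against 48.0% of all genes tested and a median of −0.01. At the study threshold 4 of 21 rose, where 2.79% of all genes did: ATPsyn-beta, Cyt-c-p, SdhA and ATPsyn-Cf6. With the time point added to the fit as a block, fewer members passed, as given in the closing section. ATPsyn-beta was at 7507, 10197 and 12188 CPM (lowest, median, highest) in Sk2-TRF flies, against 6944, 8118, 6986, 6568 and 6357 CPM at ZT3 to ZT19 in Sk2-ALF flies. The highest Sk2-ALF library reached into the Sk2-TRF range and the others lay below it. The log2 fold change was 0.50 (SE 0.21, unadjusted p = 0.0216, adjusted p = 0.543, edgeR).

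Cyt-c-p was at 1704, 2224 and 2942 CPM in Sk2-TRF flies, against 1786, 1688, 1285, 1824 and 1561 CPM in Sk2-ALF flies (log2 fold change 0.49, SE 0.23, adjusted p = 0.576, edgeR). SdhA had a log2 fold change of 0.48 (SE 0.23, adjusted p = 0.589) and ATPsyn-Cf6 of 0.44 (SE 0.22, adjusted p = 0.598). By complex, the medians were 0.33 for I, 0.47 for II, 0.32 for IV and 0.44 for V. Of the 48 renamed subunits 11 rose at the study threshold and 47 were higher by some amount, COX7A being the exception at −0.03.

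Set side by side by time point, with 1 library per regimen and no test, the Sk2 libraries differed unevenly. At ZT7 and ZT11 all 21 members were higher in the TRF library than in the ALF library of the same time, with median log2 ratios of 0.88 and 0.82. At ZT3, ZT15 and ZT19 the members were split, with 14, 8 and 5 of 21 higher in TRF and medians of 0.02, −0.12 and −0.12. Leaving out 1 library moved the count of 4 to between 0 and 7, with 0 left without Sk2-TRF ZT15 or Sk2-TRF ZT23, 1 without Sk2-TRF ZT7, Sk2-TRF ZT11, Sk2-ALF ZT7 or Sk2-ALF ZT11, and 7 without Sk2-TRF ZT19. Fat body markers ran in the same direction, with sums of 25224, 30268 and 59945 CPM in Sk2-TRF flies and 16539.6, 22398 and 27274 CPM in Sk2-ALF flies. At ZT7 the fat body sum was 59945 CPM in Sk2-TRF and 22398 CPM in Sk2-ALF flies. Flight muscle markers summed to 22144, 35084 and 38858 CPM in Sk2-TRF flies and to 23872, 25307 and 54115 CPM in Sk2-ALF flies. The part of either list in the difference was not tested.

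In HFD flies the same genes leaned the other way. All 21 members were lower under TRF by some amount (median −0.32, range −0.50 to −0.13), against 45.2% of all genes tested and a median of 0.03. At the study threshold 2 of 21 fell, where 7.32% of all genes did. CoVIIc, a small complex IV subunit, was at 306, 421 and 577 CPM in HFD-TRF flies and at 304, 594 and 1002 CPM in HFD-ALF flies, groups that overlap over much of their range. Its log2 fold change was −0.50 (SE 0.18, unadjusted p = 0.0103, adjusted p = 0.231, edgeR).

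Cyt-c-p was at 417, 666 and 768 CPM in HFD-TRF flies and at 388, 837 and 1617 CPM in HFD-ALF flies (log2 fold change −0.49, SE 0.22, adjusted p = 0.316, edgeR). Of the 48 renamed subunits 13 fell at the study threshold and 47 were lower by some amount. The share of members past the threshold, 2 of 21, was near the 7.32% of all genes, while that of the renamed subunits was above it.

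The HFD libraries, again 1 per regimen and time point with no test, also differed unevenly. In HFD flies, 20 of 21 members were higher under TRF at ZT3 (median log2 ratio 0.71) and 19 of 21 at ZT15 (0.19). None was higher at ZT7, ZT11 or ZT19, with medians of −1.17, −0.74 and −0.73, and at ZT23 the members were split, 11 higher and 10 lower. Without HFD-ALF ZT3, the library with the lowest values, 14 of 21 members fell at the study threshold. Without HFD-ALF ZT11, the library with the highest values, 0 did. The count was 1 without HFD-TRF ZT7 or HFD-ALF ZT19 and 4 without HFD-TRF ZT15 or HFD-ALF ZT15. The share of all genes past the threshold was not computed for these refits.

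In WT flies, 20 of 21 members were higher under TRF by some amount (median over the 21, 0.26), against 49.1% of all genes tested. At the study threshold 1 of 21 rose, where 2.72% of all genes did. SdhB was at 1158, 1384, 645, 758 and 1357 CPM at ZT3, ZT7, ZT15, ZT19 and ZT23 in WT-TRF flies, and at 499, 703 and 978 CPM (lowest, median, highest) in WT-ALF flies. The WT-TRF libraries of ZT3, ZT7 and ZT23 were above every WT-ALF library and those of ZT15 and ZT19 were not (log2 fold change 0.58, SE 0.27, unadjusted p = 0.0418, adjusted p = 0.629, edgeR). CoVIIc was the 1 member below 0 (−0.07, SE 0.19).

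By time of day, all 21 members were higher under TRF in WT flies at ZT3 and ZT15 and 20 of 21 at ZT7 and ZT23, and 20 of 21 were lower at ZT19. SdhB no longer passed without WT-TRF ZT3, ZT7 or ZT23 or without WT-ALF ZT3 or ZT15, which left a count of 0, and the count was 2 without WT-TRF ZT15, WT-TRF ZT19 or WT-ALF ZT7. None of the 48 renamed subunits passed the study threshold in WT flies.

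**Figure D3:**
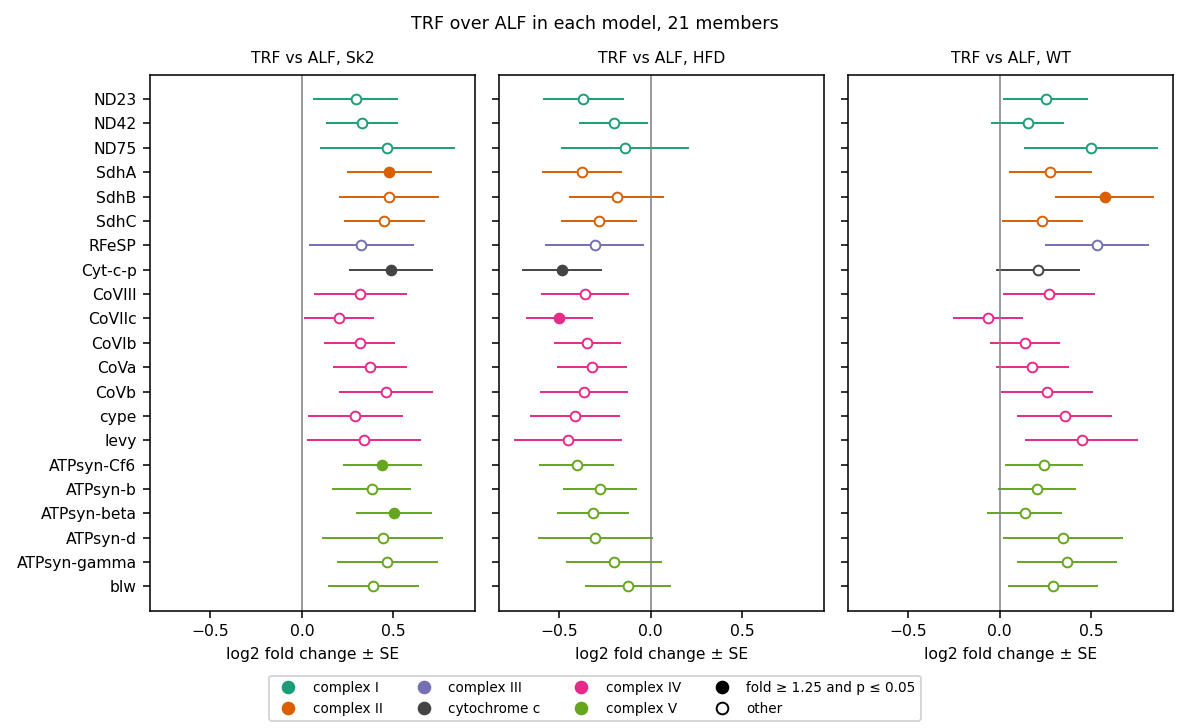
Log2 fold change of TRF over ALF for each of the 21 members, by model, from the fit over 34 libraries; bars are 1 SE, colours are complexes, and filled points passed the study threshold. Members lie above 0 in Sk2 flies, below 0 in HFD flies and mostly above 0 in WT flies, with errors that often reach 0.

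The differences between models in the response to TRF were tested directly. Between HFD and WT flies, 0 of 21 members passed an adjusted p under 0.05 with edgeR or DESeq2, and 6 of 21 had an unadjusted p of at most 0.05, where 7.98% of all genes did: levy, RFeSP, cype, Cyt-c-p, SdhA and ATPsyn-Cf6. For Cyt-c-p the TRF response was lower in HFD than in WT flies by a log2 difference of −0.70 (SE 0.32, adjusted p = 0.585, edgeR). All 21 differences were below 0 (median over the 21, −0.62), against 43.4% of all genes. Of all genes 0.0% passed the adjusted test in either direction. Between Sk2 and WT flies, 0 of 21 had even an unadjusted p of at most 0.05 (median over the 21, 0.18), where 6.88% of all genes did.

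The contrast of Sk2 with HFD flies was added after the other results were known, and these groups differ in genotype and diet at once. Here 0 of 21 members passed an adjusted p under 0.05 with edgeR or DESeq2 and 11 of 21 had an unadjusted p of at most 0.05, where 12.5% of all genes did. Of all genes, 0.03% passed the adjusted test with a positive and 0.01% with a negative difference. All 21 differences were above 0 (median over the 21, 0.69, range 0.52 to 0.98), against 46.5% of all genes. Cyt-c-p had the largest, a log2 difference in TRF response of 0.98 between Sk2 and HFD flies (SE 0.32, unadjusted p = 0.0045, adjusted p = 0.263, edgeR). The opposite directions of the members in Sk2 and HFD flies were thus not established by the adjusted test of the difference.

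The models themselves were compared within each regimen. Under TRF, members were lower in HFD than in WT flies by some amount. All 21 had a negative log2 fold change (median over the 21, −0.76, range −0.97 to −0.52), against 52.9% of all genes tested. At an adjusted p under 0.05, 13 of 21 fell, where 4.74% of all genes did. Among the libraries used, without WT-TRF ZT11, the groups did not overlap for 9 members, where 2.22% of all genes were lower without overlap. These were ATPsyn-Cf6, ATPsyn-beta, CoVIIc, CoVIb, CoVa, CoVb, Cyt-c-p, ND23 and SdhC.

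CoVIII and CoVb, both small complex IV subunits, and Cyt-c-p and ATPsyn-Cf6 had the largest changes among those that fell. Cyt-c-p was at 417, 666 and 768 CPM in HFD-TRF flies, against 999.6, 1813, 1007, 1111 and 1396 CPM at ZT3, ZT7, ZT15, ZT19 and ZT23 in WT-TRF flies. Every HFD-TRF library was below every WT-TRF library used (log2 fold change −0.97, SE 0.23, adjusted p = 0.00637, edgeR). WT-TRF ZT11, left out by the study and scaled over all 36 libraries, was at 651 CPM, inside the HFD-TRF range.

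CoVIII was at 88.2, 167 and 222 CPM in HFD-TRF flies, against 381, 413, 218, 250.5 and 312 CPM in WT-TRF flies, so the highest HFD-TRF library passed the lowest WT-TRF library (−0.97, SE 0.25, adjusted p = 0.0125). CoVb was at 189.6, 343 and 437 CPM, against 717, 885, 463, 481 and 738 CPM (−0.96, SE 0.25, adjusted p = 0.0138), and its groups did not overlap. ATPsyn-Cf6 was at 219, 329 and 376 CPM, against 588, 817, 445, 500.1 and 689 CPM (−0.92, SE 0.21, adjusted p = 0.00581), again without overlap.

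By complex, 6 of 7 members of complex IV fell, levy (the subunit VIa homologue) having an adjusted p of 0.0715. In complex II SdhA (−0.81, SE 0.23, adjusted p = 0.0215) and SdhC (−0.79, SE 0.22, adjusted p = 0.0191) fell, and SdhB had an adjusted p of 0.0698. In complex I, ND23 fell (−0.75, SE 0.23, adjusted p = 0.0346), and ND42 and ND75 did not pass. In complex V, ATPsyn-Cf6, ATPsyn-b and ATPsyn-beta fell, whereas blw had a log2 fold change of −0.55 (SE 0.24, adjusted p = 0.159). RFeSP had a log2 fold change of −0.69 (SE 0.29, adjusted p = 0.124).

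The renamed subunits gave a like picture, with 27 of 48 lower at an adjusted p under 0.05, 19 of 48 without overlap and a median of −0.76. ND-B8 (CG15434) had the largest fall, −1.32 (SE 0.26, adjusted p = 0.0015), and COX7A (CG9603) the smallest change, −0.18 (SE 0.15, adjusted p = 0.507). Both were picked out after their values were seen.

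The count of 13 leaned on 1 library in particular. Without WT-TRF ZT7, which held the highest value of 20 members, 3 of 21 members passed, and without HFD-TRF ZT7 7 did. With the 2 libraries that the study left out put back, 6 of 21 passed, and in a fit of these 2 groups alone 8 did. In these 2 fits, 1160 of 9948 and 569 of 9297 genes passed in either direction. Fat body markers summed to 6356, 18935 and 36341 CPM (lowest, median, highest) in HFD-TRF flies and to 25132, 29273 and 47582 CPM in WT-TRF flies. Their part in the difference was not tested. Flight muscle markers summed to 30077, 43275 and 49343 CPM in HFD-TRF flies and to 36175, 47046 and 60704 CPM in WT-TRF flies.

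Under ALF, no member changed between HFD and WT flies at an adjusted p under 0.05 with edgeR, where 9.42% of all genes rose and 7.17% fell, and none had an unadjusted p of at most 0.05, where 30.5% of all genes did. DESeq2 called 0 members as well. The median log2 fold change was −0.20 (range −0.34 to 0.15), with 18 of 21 below 0 (57.5% of all genes), against a median of −0.06 over all genes tested. Cyt-c-p, for example, was at 388, 837 and 1617 CPM in HFD-ALF flies and at 826, 1166 and 1315 CPM in WT-ALF flies, and the HFD-ALF range enclosed that of WT-ALF. Of the renamed subunits 1 of 48 fell, ND-15 (CG11455, −0.40, SE 0.14, adjusted p = 0.0479).

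In Sk2 flies most members were higher than in WT flies by some amount under both regimens, and a minority of them passed the test. Under TRF, 5 of 21 rose at an adjusted p under 0.05, where 12.3% of all genes did, with a median log2 fold change of 0.47 over the 21. They were Cyt-c-p, SdhC, ND23, CoVIIc and CoVa. Cyt-c-p was at 1704, 2224 and 2942 CPM in Sk2-TRF flies, against 999.6, 1813, 1007, 1111 and 1396 CPM in WT-TRF flies, and the WT-TRF library of ZT7 lay within the Sk2-TRF range. Its log2 fold change was 0.85 (SE 0.23, adjusted p = 0.00742, edgeR).

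SdhC was the 1 member whose groups did not overlap, where 7.87% of all genes were higher without overlap. It was at 1142, 1545 and 1855 CPM in Sk2-TRF flies, against 923, 1113, 707, 735 and 1009.8 CPM in WT-TRF flies (log2 fold change 0.75, SE 0.22, adjusted p = 0.0132, edgeR). ND23 had a log2 fold change of 0.67 (SE 0.24, adjusted p = 0.0363), CoVIIc of 0.66 (SE 0.19, adjusted p = 0.0121) and CoVa, a further complex IV subunit, of 0.55 (SE 0.20, adjusted p = 0.046).

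Under ALF, 3 of 21 members were higher in Sk2 than in WT flies, where 10.2% of all genes were (median over the 21, 0.35). These were cype, SdhB and ND23. The cype transcript was at 865, 603, 597, 891 and 776 CPM at ZT3 to ZT19 in Sk2-ALF flies, against 304, 471 and 607 CPM (lowest, median, highest) in WT-ALF flies, and the 2 lowest Sk2-ALF libraries lay just below the highest WT-ALF library (log2 fold change 0.76, SE 0.26, adjusted p = 0.0323, edgeR). ND23 was at 1548, 1247, 1397, 1690 and 1473 CPM in Sk2-ALF flies, against 671, 1023 and 1226 CPM in WT-ALF flies, without overlap, where 6.05% of all genes were higher without overlap. Its log2 fold change was 0.62 (SE 0.23, adjusted p = 0.0498), the same adjusted p as for SdhB (0.73, SE 0.27).

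No complex V member passed in Sk2 versus WT flies in either regimen, with medians of 0.39 under TRF and 0.29 under ALF over its 6 members, and ATPsyn-beta had log2 fold changes of −0.07 (SE 0.21, adjusted p = 0.845) under ALF and 0.29 (SE 0.21, adjusted p = 0.324) under TRF. SdhA had 0.00 (SE 0.23) and 0.20 (SE 0.23), while its partner SdhB had 0.73 and 0.63. Whether members differed from each other was not tested. Of the renamed subunits, 7 of 48 rose under ALF and 20 of 48 under TRF.

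The share of members that rose was not far from that of all genes under ALF and higher than it under TRF. The counts were unsteady, at 0 to 6 of 21 under ALF and 3 to 10 of 21 under TRF when 1 library at a time was left out. Under ALF the count was 0 without Sk2-ALF ZT3, Sk2-ALF ZT15 or WT-ALF ZT3, 1 without Sk2-ALF ZT19 or WT-ALF ZT15 and 6 without WT-ALF ZT7. Under TRF it was 10 without WT-TRF ZT7, 8 without WT-TRF ZT23 or Sk2-TRF ZT19, and 3 without WT-TRF ZT15, WT-TRF ZT19, Sk2-TRF ZT7, Sk2-TRF ZT11 or Sk2-TRF ZT23. Without the 2 libraries with raised ovary and germline markers, Sk2-ALF ZT15 and WT-ALF ZT11, no member passed under ALF. In that fit 2003 of 10056 genes passed in either direction, and the median log2 fold change of the members was 0.34.

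**Figure D4:**
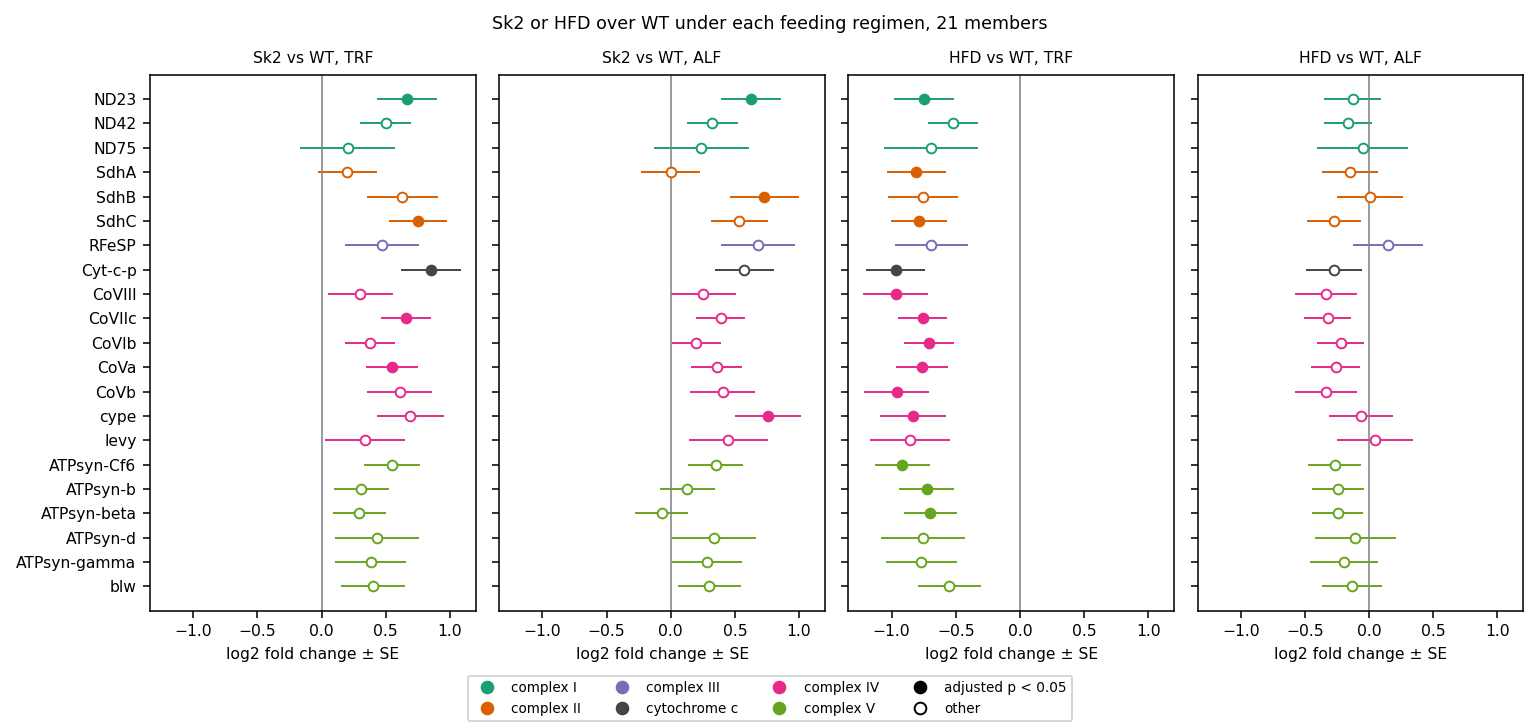
Log2 fold change of each of the 21 members of Sk2 over WT and of HFD over WT, within TRF and within ALF, from the fit over 34 libraries; bars are 1 SE, colours are complexes, and filled points had an adjusted p under 0.05. HFD over WT lies below 0 for all members under TRF and near 0 under ALF, while Sk2 over WT is mostly above 0 with few filled points.

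Sk2 and HFD flies were the farthest apart. In this added contrast, all 21 members were higher in Sk2-TRF than in HFD-TRF flies at an adjusted p under 0.05, where 22.0% of all genes were. The log2 fold changes ran from 0.90 (ND75) to 1.82 (Cyt-c-p), with a median of 1.20 against −0.05 over all genes tested. For 19 of 21 members every Sk2-TRF library exceeded every HFD-TRF library, where 11.7% of all genes were higher without overlap. SdhA and ND75 were the exceptions.

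Cyt-c-p was at 1704, 2224 and 2942 CPM in Sk2-TRF flies and at 417, 666 and 768 CPM in HFD-TRF flies (log2 fold change 1.82, SE 0.23, adjusted p = 1.61e-07, edgeR). SdhC was at 1142, 1545 and 1855 CPM in Sk2-TRF flies and at 315, 517 and 661 CPM in HFD-TRF flies (1.54, SE 0.21, adjusted p = 1.09e-06). The lowest Sk2-TRF library stood well above the highest HFD-TRF library for both. The cype transcript was at 691, 919 and 1114 CPM in Sk2-TRF flies and at 159, 334 and 417 CPM in HFD-TRF flies (1.52, SE 0.25, adjusted p = 1.35e-05).

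The complexes were close to each other in this contrast, with medians of 1.02 for complex I, 1.38 for II, 1.31 for IV and 1.09 for V, and RFeSP at 1.16 (SE 0.28). The catalytic pair of ATP synthase, ATPsyn-beta and blw, had 0.99 (SE 0.20) and 0.95 (SE 0.24). Of the renamed subunits 46 of 48 rose, and the exceptions were COX7A (0.01, SE 0.14) and ATPsynC (CG1746, 0.41, SE 0.19, adjusted p = 0.0804), the ring subunit of the membrane rotor. COX7A was at 52.1, 61.6 and 80.7 CPM in Sk2-TRF flies, at 48.9, 60.1 and 90.9 CPM in HFD-TRF flies and at 54.8, 71.5 and 83.6 CPM in WT-TRF flies, groups that overlap almost wholly. The largest value among the renamed genes was that of UQCR-11, listed as Ucrh, the hinge protein of complex III, with 2.47 (SE 0.29, adjusted p = 5.47e-08). These 3 genes were singled out after their values were seen.

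Leaving out any 1 library left 20 or 21 of 21 members higher in Sk2-TRF than in HFD-TRF flies. Fat body markers again ran in the same direction, with sums of 25224, 30268 and 59945 CPM in Sk2-TRF flies and 6356, 18935 and 36341 CPM in HFD-TRF flies, and their part was not tested. Flight muscle markers did not, with 22144, 35084 and 38858 CPM in Sk2-TRF flies and 30077, 43275 and 49343 CPM in HFD-TRF flies. Under ALF, 9 of 21 members differed between Sk2 and HFD flies, all of them higher in Sk2, where 1702 of 9996 genes were higher in Sk2 and 33.3% of all genes differed in either direction (median over the 21, 0.53), and no member was without overlap, where 7.87% of all genes were higher without overlap. Cyt-c-p led again with 0.85 (SE 0.23, adjusted p = 0.00504), followed by cype, SdhC and ND23 at 0.82, 0.81 and 0.75.

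Time of day left a weaker mark. With the groups accounted for, 0 of 21 members varied between the 6 time points at an adjusted p under 0.05 with edgeR or DESeq2, where 2.31% of all genes did, and 1 of 21, ATPsyn-beta, had an unadjusted p of at most 0.05, where 15.7% of all genes did (adjusted p = 0.304, edgeR). The test looks for a time course shared by all 6 groups. A course particular to 1 model or regimen could not be tested, with 1 library per group and time. Averaged over the libraries of a time point, all 21 members were lowest at ZT3. In 20 of 21 the highest average was at ZT11, and in ATPsyn-beta it was at ZT23. The distance between highest and lowest average was 0.30 (ATPsyn-gamma) to 0.63 (SdhA) on the log2 scale.

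For SdhA the deviations from the group mean were −0.36, 0.07, 0.28, −0.04, −0.04 and 0.16 at ZT3 to ZT23. ZT11 has 5 libraries in place of 6 and includes HFD-ALF ZT11, the highest of its group for 14 members. No member differed between the light and dark phases at an adjusted p under 0.05, where 0.18% of all genes were higher and 0.2% lower in the light. Within the groups, ZT3 held the lowest value of 20 members in HFD-ALF and of 15 in WT-ALF flies, but of 0 in Sk2-TRF, 0 in Sk2-ALF, 1 in HFD-TRF and 2 in WT-TRF flies, so the low average at ZT3 came mainly from 2 of 6 groups.

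**Figure D5:**
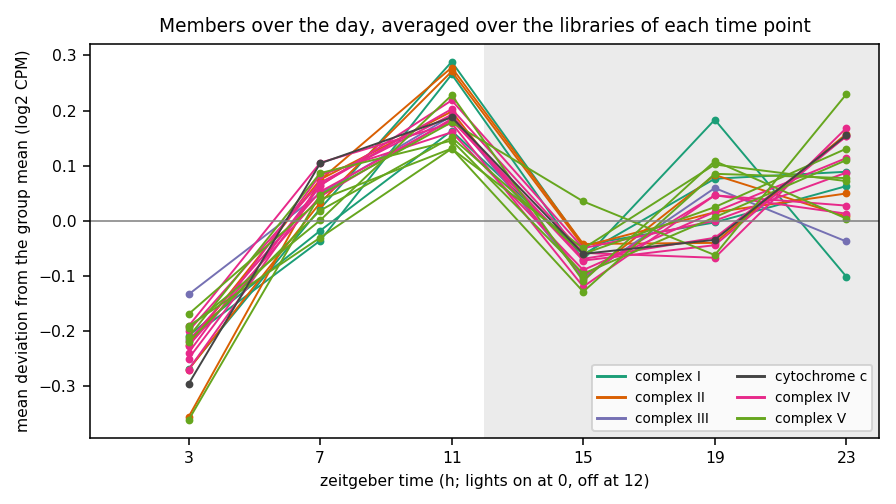
Mean deviation of each member from its group mean (log2, averaged over the libraries of each time point) from ZT3 to ZT23; each line is 1 of the 21 members, coloured by complex, and the dark phase is shaded. The lines run close together, with the lowest point at ZT3 and the highest at ZT11 for 20 of 21.

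Other genes of the pathway came from lists of subunits under other names, assembly factors and helpers, carriers and regulators. The mitochondrial genome's own subunit genes were not analysed here. Under TRF, the 2 further subunits tested, ox and sun, fell in HFD versus WT flies (log2 fold changes −0.91, SE 0.23, and −0.83, SE 0.21). Among 3 carriers, porin, the channel of the outer membrane, fell in HFD-TRF versus WT-TRF flies (−0.65, SE 0.19, adjusted p = 0.0225, edgeR) and sesB, the ADP/ATP exchanger of the inner membrane, had −0.64 (SE 0.21, adjusted p = 0.0503).

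The carrier porin was at 2332, 3157 and 3992 CPM in Sk2-TRF flies, at 672, 991 and 1078 CPM in HFD-TRF flies and at 1258, 1351 and 1919 CPM in WT-TRF flies, 3 groups without overlap. In Sk2 versus WT flies it rose under TRF (1.06, SE 0.19, adjusted p = 0.000134) and ALF (0.74, SE 0.19, adjusted p = 0.00425), whereas sesB had 0.26 (SE 0.22) and −0.04 (SE 0.21) and did not pass. Of the 6 assembly factors and helpers tested, Surf1, needed for complex IV, rose in Sk2 flies under TRF (0.86, SE 0.17) and ALF (0.71, SE 0.17). CG13551, a homologue of the ATP synthase inhibitor IF1, fell under TRF (−0.65, SE 0.18, adjusted p = 0.00851, edgeR) and had −0.36 (SE 0.18, adjusted p = 0.159) under ALF.

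Of the 7 regulators tested, 1 rose and 1 fell in Sk2 versus WT flies in each regimen. TFAM, which packs mitochondrial DNA and takes part in its transcription, was at 110.5, 151 and 165 CPM in Sk2-TRF flies. In WT-TRF flies it was at 77.5, 90.3 and 98.0 CPM, without overlap (0.72, SE 0.18, adjusted p = 0.00349, edgeR). The fly PGC-1 homologue srl (spargel), a coactivator of mitochondrial genes, averaged 19.5 ± 3.91 CPM in Sk2-TRF flies (SD, n = 6; highest 24.0) and 35.1 ± 8.24 CPM in WT-TRF flies (SD, n = 5; lowest 27.1), also without overlap and in the other direction (−0.84, SE 0.18, adjusted p = 0.000849). Under ALF the values were 0.53 (SE 0.18) for TFAM and −0.62 (SE 0.18) for srl. These genes were picked from their lists after their values were seen.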

How the data were processed

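RNA-seq counts per gene were taken from 1 table of 36 libraries of indirect flight muscle. The deposited values are raw counts that the authors made with featureCounts 1.5.0-p1 from 50-bp single reads. Per the submitters' processing notes, CASAVA 1.8, FastQC 0.11.8, STAR 2.5.3a and HOMER 4.10 were used, with dm6, while the sources give differing STAR versions. All 36 count columns matched a sample. Coordinates are those of the table's dm6 annotation. Current symbols came from RefSeq Release 6. Per the file header, reads were counted on the reverse strand.

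Counts were normalised by TMM and tested with edgeR 4.0.16 (R 4.3.3), by the quasi-likelihood test on 6 group means over 34 libraries, after edgeR's filter on low counts (9996 genes), with Benjamini-Hochberg adjustment over all of them. SE is the log2 fold change divided by the root of F. CPM of the 2 libraries left out came from TMM over all 36 libraries. The threshold of the study was used for TRF versus ALF and an adjusted p under 0.05 elsewhere. Time of day was tested with the 6 time points added to the groups. Scripts were tested on simulated counts. Summaries used Python 3.11.15 with pandas 2.3.3 and numpy 2.4.6, and plots matplotlib 3.10.9.

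Members were named by level within a complex (the 2 highest and the lowest per kb) or by change. Naming by change took the 4 largest per comparison and direction among those past the threshold. Also named were SdhA to SdhD, blw, levy, cype, RFeSP and both cytochrome c genes. Other names come from lists or were chosen after their values were seen, and this is not remarked on each time. Low count means a mean under 10 CPM or failing the filter. Members, lists and tests were chosen with earlier results of these data known. Alternatives were other size factors, filters, sample sets, DESeq2 1.42.0, a block by time point and leaving out each library. The depth limits the low-count genes. No sequences are shown.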

Additional observations from a re-analysis of the deposited data

Results flagged for a closer look

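In 2 of the 132 combinations examined, each of a group with a member or with the members' sum, 1 library lay far from the rest of its group. Chance alone gives about 1 in 20 for a single combination, and the combinations were not independent, since the members moved together. Both were in HFD-TRF flies at ZT7, the library with the lowest values of 20 of 21 members and the lowest fat body marker sum. ND42, an accessory subunit of complex I, was at 203 CPM there, with a gap to the next library of 0.631 of the group's range. ATPsyn-Cf6, of the ATP synthase stalk, was at 219 CPM there, with a gap of 0.628 of the range. Without this library, 7 in place of 13 members were lower in HFD-TRF than in WT-TRF flies, and 1 in place of 2 lower in HFD-TRF than in HFD-ALF flies.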

How the results depend on the processing

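The median log2 fold change of the members kept its direction in every comparison under every alternative run, from 1.04 to 1.32 for Sk2 versus HFD under TRF, −0.84 to −0.62 for HFD versus WT under TRF and −0.47 to −0.20 for TRF versus ALF in HFD flies. Counts of members called were less stable, and the cause was not tested. With all 36 libraries the counts were 0 for TRF versus ALF in WT flies (1 as reported above) and 6 for HFD versus WT under TRF (13). For Sk2 versus WT they were 1 under ALF (3) and 11 under TRF (5). Of 9948 genes, 1303, 1160, 1664 and 2973 passed in these comparisons in either direction. With only the groups compared TRF versus ALF gave 9 in Sk2 (4), 0 in HFD (2) and 2 in WT flies. In these TRF versus ALF fits, 732 of 9589 genes passed in either direction in Sk2, 871 of 9466 in HFD and 507 of 8988 in WT flies. HFD versus WT under TRF gave 8, where 569 of 9297 genes passed in either direction. Sk2 versus WT gave 6 under ALF (1847 of 9179 genes) and 9 under TRF (2538 of 9580 genes). Sk2 versus HFD under ALF gave 4 (9 as reported above), where 2445 of 9496 genes passed. With DESeq2 the member counts were 4 for TRF versus ALF in HFD flies, and 6 and 10 for Sk2 versus WT under ALF and TRF. Of 9996 genes, 1206, 2483 and 2692 passed there in either direction. With RLE size factors Sk2 versus WT under TRF gave 8, where 2535 of 9996 genes passed in either direction. Without a filter Sk2 versus WT under ALF gave 1, where 2181 of 14934 genes passed in either direction. With at least 10 counts in every library TRF versus ALF in HFD flies gave 4, and Sk2 versus WT 6 under ALF and 9 under TRF. Of 7536 genes, 738, 1892 and 2174 passed there in either direction. Sk2-ALF ZT15 and WT-ALF ZT11 were chosen after seeing the data. Without them, TRF versus ALF in WT flies gave 0, Sk2 versus WT gave 0 under ALF and 8 under TRF, and Sk2 versus HFD under ALF gave 5. Of 10056 genes, 681, 2003, 2549 and 2988 passed in these comparisons in either direction.

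Leaving out 1 library at a time gave, for TRF versus ALF, 0 to 7 members in Sk2, 0 to 14 in HFD and 0 to 2 in WT flies. It gave 3 to 16 for HFD versus WT under TRF, 0 to 6 and 3 to 10 for Sk2 versus WT under ALF and TRF, and 6 to 12 and 20 to 21 for Sk2 versus HFD under ALF and TRF. Shares of all genes were not computed for these refits. The counts of 0 for HFD versus WT under ALF, for the 3 differences in TRF response and for time of day were 0 in every alternative run, including the cosine fit and the contrast of light and dark phases. With the time point as a replicate block, TRF versus ALF called 1 member in HFD flies (2 without the block) and 1 in Sk2 flies (4). The renamed subunits called in Sk2 flies numbered 1 (11 without the block), and Sk2 versus WT under TRF called 3 members (5). With the block, TRF versus ALF called 1100 of 9996 genes in HFD and 546 in Sk2 flies in either direction. Sk2 versus WT under TRF called 2599. Libraries of the same time point deviated together in 7 of 16 pairs of TRF and ALF libraries (correlation over 0.1, range −0.24 to 0.39), so the time points were not treated as pairs. In Sk2 flies, where the block lowered the counts, the correlations were all positive, at 0.09, 0.01, 0.34, 0.21 and 0.32 from ZT3 to ZT19.

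The alternative that scales without the genes of the mitochondrial genome was not run. Low-count paralogues are limited by depth, since 3 counts stand for up to 0.901 CPM.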
